A study of Mus musculus with 8 samples.

Results

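The genes described here are 35 genes of glycolysis and of the transcriptional response to low oxygen chosen by symbol, with earlier results of these data known: 15 glycolytic enzymes and 20 other hypoxia-induced genes. Of the 35, 32 had a row among the 12193 loci of the tables (15 enzymes and 17 others), and all 32 passed the filter of at least 1 FPKM (fragments per kilobase of transcript, scaled to library total) in at least 2 libraries that left 10874 loci for testing. Egln3, P4ha2 and Plod2 were not analysed here. The RNA came from AtT-20, a mouse pituitary tumour line of corticotropes, the cells that process Pomc to ACTH, in a series on the effect of the EGF receptor on transcription. Water, labelled 3 h, was given to a line of genotype Neo (control) and to a line of genotype EGFR. The EGFR line was also treated with EGF for 3 h and for 18 h, and each of these 4 groups had n = 2 libraries. All cells were grown in DMEM with fetal bovine serum, penicillin and streptomycin. The labels do not say whether either line is 1 clone or a pool, or which promoter or species the EGFR construct has, so a difference between the lines cannot be told apart from a difference between clones. No Neo library received EGF and no water library is labelled 18 h, so an effect of 18 h of EGF cannot be told apart from time in culture.

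Glycolysis turns glucose into pyruvate. Glucose enters through transporters such as Slc2a1, hexokinases trap it as a phosphate, phosphofructokinase commits it to the pathway, and pyruvate is either reduced to lactate by Ldha and exported, or burned in mitochondria. Cells short of oxygen shift to the first fate through the transcription factor HIF, whose alpha subunit is hydroxylated by prolyl hydroxylases such as Egln1 and destroyed when oxygen is present. Stabilised HIF binds hypoxia response elements with the core letters ACGTG or GCGTG and raises most glycolytic enzymes, the lactate exporter Slc16a3, the pyruvate dehydrogenase kinase Pdk1, mitophagy receptors and growth factors such as Vegfa. Growth factor signals can also raise HIF and glycolysis in normal oxygen. The oxygen level of the cultures is not given in the labels.

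Of 7 corticotrope markers 5 had rows. Pomc was at 8864 ± 92.9 FPKM in the Neo line and 8274 ± 47.4 in the EGFR line in water (mean ± SD, n = 2). Between these groups Neurod1 was called lower in the EGFR line (log2 fold change −0.24, limma adjusted p = 0.0256), and Pomc, Tbx19, Pitx1 and Pcsk1 were not called. Of 24 markers of other pituitary lineages, fibroblasts, endothelium and blood 0 had a row. The choice of the loci is not given, so a missing row does not show that a gene was silent. Egfr was 0.227 and 0.0664 FPKM in the Neo libraries and 25.9 to 31.9 in the 6 EGFR libraries. FPKM sums ran from 683834 to 808072 and Pearson's r across genes between replicates from 0.985 to 0.987. Small RNA loci held 39.0% and 33.2% of FPKM in Neo replicates 1 and 2 and 29.1 to 32.8% in the other libraries. The sequencing depth behind these values is unknown. No label says that replicates came from separate cultures, so p-values reflect the spread between these libraries alone and that spread may be technical, and in bulk RNA fewer cells and less RNA per cell cannot be told apart.

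The promoters of 5 of the members with lower levels in the EGFR line are shown because they carry ACGTG. That of Pfkl, the enzyme with the lowest ratio between the lines, is shown too and holds no ACGTG. The other core, GCGTG, is in the stretches of Pfkl, Bnip3 and Ankrd37 and is not marked. Each promoter shown is the 250 bases before the RefSeq start (build GRCm38.p6). Capitals mark ACGTG on either strand, with CACGTG, which reads the same on both strands, counted as 1 site. The positions are chr7:138909507-138909756 (minus strand) for Bnip3, chr11:120948817-120949066 (plus strand) for Slc16a3, chrX:106186850-106187099 (plus strand) for Pgk1, chr7:46845554-46845803 (plus strand) for Ldha, chr8:45999851-46000100 (minus strand) for Ankrd37 and chr10:78009808-78010057 (minus strand) for Pfkl.
Bnip3: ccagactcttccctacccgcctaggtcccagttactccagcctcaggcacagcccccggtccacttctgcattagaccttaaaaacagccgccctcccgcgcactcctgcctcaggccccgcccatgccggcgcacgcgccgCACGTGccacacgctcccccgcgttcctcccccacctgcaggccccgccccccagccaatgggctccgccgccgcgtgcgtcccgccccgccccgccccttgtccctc
Slc16a3: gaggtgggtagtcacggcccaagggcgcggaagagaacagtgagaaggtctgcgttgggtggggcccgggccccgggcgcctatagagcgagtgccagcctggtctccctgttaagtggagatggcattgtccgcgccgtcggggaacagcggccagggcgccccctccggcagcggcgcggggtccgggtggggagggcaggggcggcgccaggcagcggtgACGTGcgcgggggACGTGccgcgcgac
Pgk1: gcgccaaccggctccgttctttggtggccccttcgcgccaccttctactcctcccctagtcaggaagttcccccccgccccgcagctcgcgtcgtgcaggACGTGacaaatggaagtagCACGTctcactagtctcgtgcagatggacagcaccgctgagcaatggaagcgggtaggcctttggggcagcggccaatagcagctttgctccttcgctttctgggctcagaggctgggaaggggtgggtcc
Ldha: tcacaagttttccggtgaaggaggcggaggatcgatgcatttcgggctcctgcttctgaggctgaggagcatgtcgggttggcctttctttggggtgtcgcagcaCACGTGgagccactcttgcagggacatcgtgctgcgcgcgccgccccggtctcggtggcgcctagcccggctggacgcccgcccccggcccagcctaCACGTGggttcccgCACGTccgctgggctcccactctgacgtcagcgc
Ankrd37: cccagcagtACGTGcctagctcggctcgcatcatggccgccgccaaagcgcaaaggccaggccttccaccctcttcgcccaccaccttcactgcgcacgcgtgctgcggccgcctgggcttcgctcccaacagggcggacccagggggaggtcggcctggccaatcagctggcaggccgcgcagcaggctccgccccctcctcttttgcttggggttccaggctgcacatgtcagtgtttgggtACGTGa
Pfkl: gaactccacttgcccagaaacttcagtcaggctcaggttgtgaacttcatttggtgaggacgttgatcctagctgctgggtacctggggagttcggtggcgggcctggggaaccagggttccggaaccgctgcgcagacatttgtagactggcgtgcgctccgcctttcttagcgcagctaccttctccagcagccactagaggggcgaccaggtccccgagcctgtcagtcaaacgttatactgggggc

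RefSeq windows of 250 bases before to 50 after the start matched 30 of the 32 members, Bnip3l and Ndrg1 being the exceptions. ACGTG stood in at least 1 window of 20 of the 30 genes, 9 of 15 enzymes and 11 of 15 others, and of 30.7% of the 7167 tested genes with a window. By window, it was in 22 of 44 member windows, against 26.5% of the 9094 windows of genes tested and 19.6% of all 32817 windows. At least 2 sites were in 7 member windows (15.9%) and in 4.73% of the windows of genes tested. Ldha held 3 sites, at −145, −48 and −34 from the start, and Pgk1 held sites at −150 and −131. The other core, GCGTG, was as common in member windows (52.3%) as in those of genes tested (53.0%). A match is a description of the letters, and a window without one says nothing about binding elsewhere.

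In water, the EGFR line had lower levels of glycolytic enzymes and hypoxia-induced genes than the Neo line. All 15 enzymes were lower by limma at an adjusted p below 0.05 and none was higher, with log2 fold changes from −1.12 to −0.16 and a median of −0.54, against 0.01 over all genes tested. Of the 17 other hypoxia-induced genes 15 were lower, with a median of −0.58 and a lowest value of −1.82. Over all genes 2.90% were lower and 3.11% higher at that threshold. All 32 members were lower in both EGFR water libraries than in either Neo library, which held for 24.2% of genes tested. Of the members, 8 were lower by a log2 fold change of at least 1, among 18 such genes in all (0.166%). At an unadjusted p below 0.05, 0 members were higher and 32 lower, against 1619 higher and 1185 lower of all 10874 genes tested. Ordered from the most negative fold change, the members held ranks 11 to 790 of 10874. The plot of fold changes between the lines shows every member with its 95% interval.

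**Figure D1:**
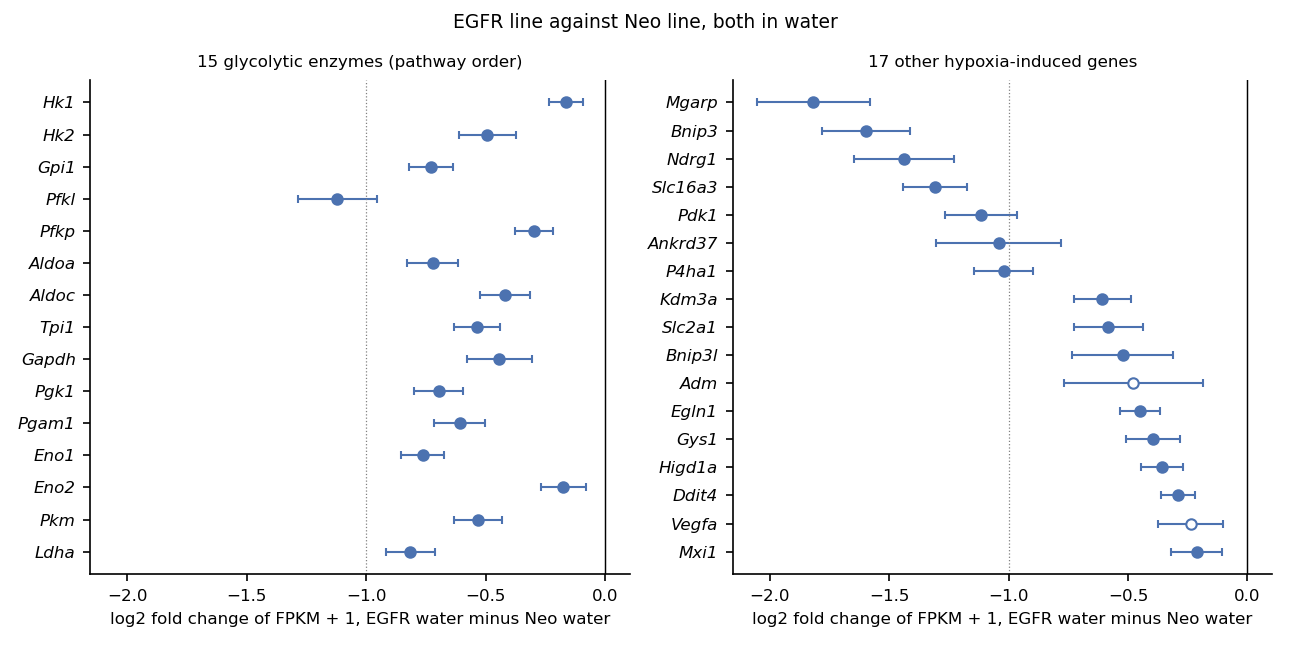
Log2 fold change of FPKM + 1 between the EGFR and Neo lines in water for the 15 glycolytic enzymes in pathway order (left) and the 17 other hypoxia-induced genes (right), with bars for the 95% confidence interval from limma, filled points for an adjusted p below 0.05 and a dotted line at −1. All 32 points lie below 0, Mgarp is lowest at −1.82, and Adm and Vegfa are open.

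At the entry of the pathway, Slc2a1, the widespread glucose transporter, was at 32.3 and 29.9 FPKM in the Neo libraries, 19.3 and 21.6 in EGFR water, 24.2 and 25.4 after 3 h of EGF and 24.5 and 23.6 after 18 h. The Neo libraries were above all others without overlap, and both EGF groups lay between Neo and water. Its fold change between the lines was −0.58 on the log2(FPKM + 1) scale (SE 0.0620, limma adjusted p = 0.00410). Hk2, the inducible hexokinase (ENSMUSG00000000628, mm10 chromosome 6, 82725025 to 82774454, minus strand), was at 50.2 and 49.8 FPKM in the Neo libraries, 35.5 and 35.03 in EGFR water, 26.5 and 29.7 after 3 h of EGF and 30.4 and 29.9 after 18 h. Each step from Neo to water and from water to EGF was free of overlap, and the change between the lines was −0.49 (adjusted p = 0.00357). Hk1, the constitutive hexokinase, differed least of the enzymes, at 51.2 ± 0.514 against 57.4 ± 0.523 FPKM (log2 fold change −0.16, adjusted p = 0.0280). Gpi1, which turns glucose 6-phosphate into fructose 6-phosphate, was at 245 and 249.7 FPKM in the Neo libraries, 146 and 152 in EGFR water, 141 and 143 after 3 h of EGF and 158 and 149 after 18 h. Its 2 Neo values were above all 6 EGFR values, a fold change of −0.73.

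At the phosphofructokinase step the liver and platelet subunits differed in size of change. Pfkl, the liver-type subunit (ENSMUSG00000020277, mm10 chromosome 10, 77986947 to 78010083, minus strand), was at 45.6 and 49.6 FPKM in the Neo libraries, 20.1 and 22.6 in EGFR water, 20.2 and 19.8 after 3 h of EGF and 24.8 and 22.3 after 18 h, so that no EGFR library reached the Neo range. Its fold change was −1.12 (SE 0.0708, adjusted p = 3.30e-04), which left 44.9% of the Neo level. Pfkp, the platelet-type subunit and the more abundant of the pair per length, was at 202 ± 3.65 against 248 ± 3.48 FPKM, 81.3% of the Neo level. Among the aldolases, which split fructose 1,6-bisphosphate, Aldoa was at 1026 and 1027 FPKM in the Neo libraries, 615 and 629.8 in EGFR water, 619 and 647 after 3 h of EGF and 756 and 707 after 18 h. It had the highest FPKM of all members in every library, and the lines differed by −0.72 (adjusted p = 3.30e-04). Aldoc was at 49.2 and 47.1 FPKM in the Neo libraries, 35.6 and 35.97 in EGFR water, 33.2 and 33.9 after 3 h of EGF and 50.9 and 46.9 after 18 h. The 2 EGF 18 h values of Aldoc overlapped the Neo values, while those in water and at 3 h did not, and the lines differed in water by −0.42 (adjusted p = 0.00410).

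The enzymes of the later steps were lower in the EGFR line too. Tpi1, which interconverts the triose phosphates, was at 445 and 465 FPKM in the Neo libraries, 310.3 and 317 in EGFR water, 273 and 287 after 3 h of EGF and 285 and 274 after 18 h. Gapdh, the triose phosphate dehydrogenase often used as a reference gene, was at 669 and 609.7 FPKM in the Neo libraries, 466 and 474 in EGFR water, 439 and 434 after 3 h of EGF and 477 and 437 after 18 h. For both genes the Neo libraries were above all EGFR libraries, with fold changes in water of −0.54 and −0.44. Pgk1, the first enzyme of the pathway to make ATP (ENSMUSG00000062070, mm10 chromosome X, 106187100 to 106203699, plus strand), was at 334 and 359 FPKM in the Neo libraries, 211 and 215 in EGFR water, 207 and 216 after 3 h of EGF and 228 and 223 after 18 h. Pgam1, the phosphoglycerate mutase, was at 312 and 307 FPKM in the Neo libraries, 199 and 206 in EGFR water, 201 and 211 after 3 h of EGF and 202 and 187 after 18 h. The lines differed by −0.70 for Pgk1 and −0.61 for Pgam1, and no EGFR library of either overlapped Neo. Eno1, the widespread enolase, was at 303 and 311 FPKM in the Neo libraries, 181 and 179 in EGFR water, 169.6 and 179 after 3 h of EGF and 197 and 191 after 18 h. Its change in water was −0.76 (SE 0.0379, adjusted p = 1.78e-04), while Eno2, the neuronal enolase, was at 28.6 ± 0.0273 against 32.4 ± 1.60 FPKM (log2 fold change −0.18, adjusted p = 0.0480).

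Pkm, the pyruvate kinase, was at 767 and 816 FPKM in the Neo libraries, 541 and 551 in EGFR water, 515 and 530.1 after 3 h of EGF and 561 and 543 after 18 h. Ldha, which reduces pyruvate to lactate (ENSMUSG00000063229, mm10 chromosome 7, 46841475 to 46855627, plus strand), was at 580.4 and 622 FPKM in the Neo libraries, 338 and 344 in EGFR water, 343 and 352 after 3 h of EGF and 376 and 363 after 18 h. The 2 Neo values of each gene were above all 6 EGFR values, and the lines differed by −0.53 for Pkm and −0.82 for Ldha (adjusted p = 9.62e-04 and 2.23e-04). Added over the 15 enzymes, FPKM was 5168 and 5246 in the Neo libraries, 3377 and 3445 in water, 3267 and 3373 after 3 h of EGF and 3672 and 3500 after 18 h. These sums separate the Neo libraries from all 6 EGFR libraries.

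Of the genes that route pyruvate and lactate, Slc16a3, the lactate exporter MCT4 (ENSMUSG00000025161, mm10 chromosome 11, 120948480 to 120960868, plus strand), was at 101 and 98.2 FPKM in the Neo libraries, 38.3 and 40.9 in EGFR water, 38.4 and 36.8 after 3 h of EGF and 39.4 and 35.4 after 18 h. The 6 EGFR libraries lay between 35.4 and 40.9, with no overlap with Neo, and the fold change in water was −1.31 (SE 0.0568, adjusted p = 1.61e-04). Pdk1, the kinase that shuts off pyruvate dehydrogenase (ENSMUSG00000006494, mm10 chromosome 2, 71873224 to 71903858, plus strand), was at 39.2 and 40.9 FPKM in the Neo libraries, 18.8 and 17.1 in EGFR water, 15.3 and 15.8 after 3 h of EGF and 19.3 and 17.1 after 18 h. It stood at 44.8% of its Neo level in water, a fold change of −1.12 (SE 0.0649, adjusted p = 3.03e-04). Gys1, the glycogen synthase, was at 14.4 and 13.9 FPKM in the Neo libraries, 10.6 and 10.4 in EGFR water, 8.79 and 9.56 after 3 h of EGF and 9.99 and 9.56 after 18 h. Neo was higher than each EGFR group without overlap, and the lines differed by −0.40.

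The 2 lowest fold changes of the members were those of mitochondrial proteins. Mgarp, a mitochondrial outer membrane protein (ENSMUSG00000037161, mm10 chromosome 3, 51388412 to 51396738, minus strand), was at 6.23 and 6.36 FPKM in the Neo libraries, 0.916 and 1.24 in EGFR water, 1.18 and 1.09 after 3 h of EGF and 1.47 and 1.15 after 18 h. It was low in all 6 EGFR libraries, and since its levels there are near the pseudocount of 1, its fold change of −1.82 (SE 0.101, adjusted p = 2.51e-04) understates the ratio of levels, 17.1% of Neo. Bnip3, a mitophagy receptor (ENSMUSG00000078566, mm10 chromosome 7, 138890836 to 138909519, minus strand), was at 191 and 201 FPKM in the Neo libraries, 60.4 and 68.01 in EGFR water, 61.5 and 59.6 after 3 h of EGF and 72.1 and 62.3 after 18 h. All 6 EGFR values were below the Neo values, with a fold change of −1.60 (SE 0.0780, adjusted p = 1.78e-04). Bnip3l, the related receptor also called NIX, was at 43.2 and 35.6 FPKM in the Neo libraries, 27.3 and 26.7 in EGFR water, 19.4 and 21.6 after 3 h of EGF and 28.4 and 26.4 after 18 h. Its Neo libraries differed from each other more than the EGFR water libraries did but were above all EGFR libraries, and the fold change was −0.52 (adjusted p = 0.0243). Higd1a, a hypoxia-induced protein of the respiratory chain, was at 58.7 and 62.4 FPKM in the Neo libraries, 46.9 and 47.1 in EGFR water, 45.1 and 46.7 after 3 h of EGF and 48.7 and 48.3 after 18 h. Its change was −0.36 (adjusted p = 0.00393).

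Among regulators of the response, Egln1, the main oxygen-sensing prolyl hydroxylase and itself a HIF target, was at 48.9 and 50.6 FPKM in the Neo libraries, 36.5 and 35.7 in EGFR water, 37.8 and 39.6 after 3 h of EGF and 36.1 and 35.8 after 18 h. Ankrd37, an ankyrin repeat protein (ENSMUSG00000050914, mm10 chromosome 8, 45996902 to 46005707, minus strand), was at 76.5 and 75.5 FPKM in the Neo libraries, 36.9 and 35.9 in EGFR water, 22.6 and 29.1 after 3 h of EGF and 29.05 and 24.8 after 18 h. Neo was above the EGFR line without overlap for both, by −0.45 for Egln1 and −1.04 for Ankrd37 (adjusted p = 9.44e-04 and 0.00430). Kdm3a, a histone demethylase, was at 27.9 and 26.4 FPKM in the Neo libraries, 17.6 and 17.4 in EGFR water, 15.02 and 15.5 after 3 h of EGF and 19.1 and 17.3 after 18 h. Mxi1, an antagonist of MYC, was at 13.7 and 13.02 FPKM in the Neo libraries, 11.7 and 11.03 in EGFR water, 7.46 and 7.81 after 3 h of EGF and 8.39 and 8.43 after 18 h. The lines differed by −0.61 for Kdm3a and by −0.21 for Mxi1, so that in water Mxi1 was at 85.3% of Neo, the highest of the 17. Ddit4, an inhibitor of mTORC1, was at 45.9 ± 0.123 against 56.4 ± 1.30 FPKM (log2 fold change −0.29, adjusted p = 0.00369).

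Ndrg1, a stress-induced cytoplasmic protein (ENSMUSG00000005125, mm10 chromosome 15, 66929321 to 66969640, minus strand), was at 29.8 and 26.9 FPKM in the Neo libraries, 10.2 and 9.49 in EGFR water, 12.4 and 14.4 after 3 h of EGF and 15.3 and 13.4 after 18 h. The water libraries were lowest, the EGF libraries intermediate and the Neo libraries highest, and the lines differed in water by −1.44 (SE 0.0888, adjusted p = 3.30e-04). P4ha1, a catalytic subunit of the collagen prolyl hydroxylase (ENSMUSG00000019916, mm10 chromosome 10, 59323296 to 59373304, plus strand), was at 100.4 and 109.8 FPKM in the Neo libraries, 50.6 and 51.9 in EGFR water, 56.03 and 55.03 after 3 h of EGF and 66.2 and 61.3 after 18 h. It stood at 48.8% of Neo in water, a change of −1.02 (SE 0.0528, adjusted p = 2.12e-04). The 2 secreted members did not pass the test: Vegfa, the endothelial growth factor, was at 58.5 ± 0.587 against 69.3 ± 5.31 FPKM (log2 fold change −0.24, adjusted p = 0.0574). Adm, the vasodilator peptide adrenomedullin, was at 4.27 ± 0.382 against 6.37 ± 1.05 FPKM (−0.48, adjusted p = 0.0675). With protein-coding genes only, both were called lower (limma adjusted p = 0.0185 for Vegfa and 0.0192 for Adm). Vegfa was also called lower under median-ratio and quantile scaling (limma adjusted p = 0.0341 and 0.0352). The plot of levels in each library shows 12 of the members.

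**Figure D2:**
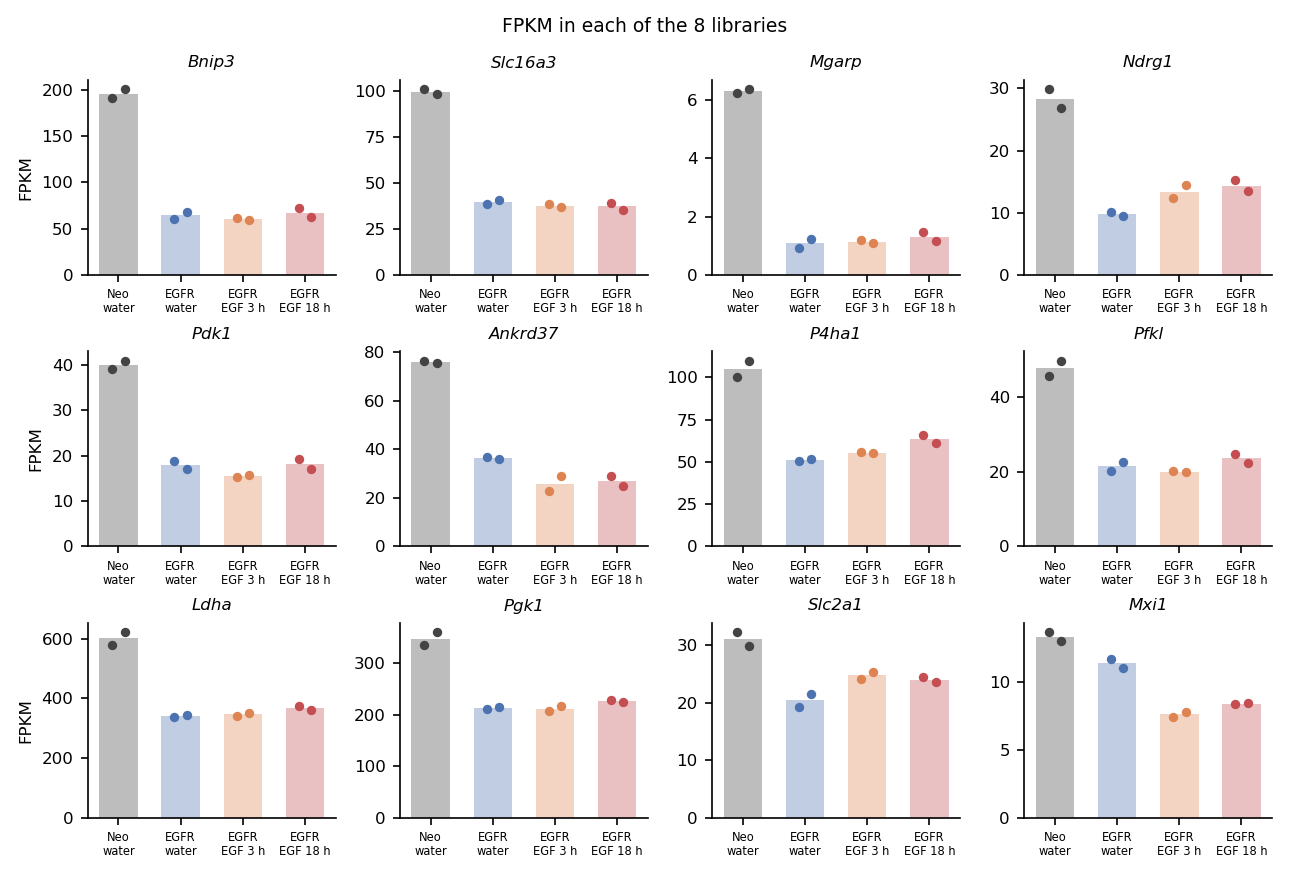
FPKM in each of the 8 libraries (points, n = 2 per group) with the group mean (bars from 0) for 12 members. The Neo libraries are above all 6 EGFR libraries in every panel, and within the EGFR line Ndrg1 and Slc2a1 are higher and Ankrd37 and Mxi1 lower after EGF than in water.

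Of the 30 members lower in the EGFR line, 21 kept the call under every setting tried. Bnip3l, Gapdh, Gys1 and Eno2 lost it without Neo replicate 1, EGFR water replicate 1 or EGFR water replicate 2, Hk1 and Mxi1 without any of the 4 water libraries, and Pfkp without EGFR water replicate 1 (adjusted p from 0.0529 to 0.208). Eno2, Mxi1 and Hk1 also lost it without some EGF libraries, which enter only the shared spread. The share of FPKM in small RNA loci was 39.0% and 33.2% in Neo replicates 1 and 2 and 30.9% and 31.9% in EGFR water. It was thus higher in both Neo libraries, mostly in replicate 1. Scaling to a common FPKM sum moved the median of all genes to 0.09 and the medians to −0.45 for the enzymes and −0.50 for the others. Under that scaling Ddit4, Higd1a, Hk1, Eno2, Mxi1 and Pfkp lost the call. Of all calls between the lines 51.8% were higher, 43.8% after median-ratio scaling and 75.0% after common-sum scaling. Parts of at least 20% of the longest transcript of Bnip3, Eno1, Pgk1, Pkm, Pgam1, Higd1a and Bnip3l match other annotated genes. The matching part was 94.2% for Bnip3, 85.6% for Eno1, 68.8% for Pgk1, 65.5% for Pkm and 36.0 to 43.5% for the rest. At least 20% of the exon bases of Bnip3, Ankrd37 and Higd1a lie in another gene. The values of all these genes are thus uncertain in source where the authors' counting could split reads.

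Of the genes around the pathway a smaller share passed the test between the lines than of the members. Both the members and these lists were chosen with earlier results of these data known. Among all genes tested 2.90% were lower and 3.11% higher. Of 18 genes of the HIF machinery 1 was lower and 0 higher (median −0.04; at an unadjusted p below 0.05 3 lower and 1 higher): Cited2, which competes with HIF for its coactivators, at 5.43 ± 0.0252 against 7.42 ± 0.0507 FPKM (−0.39, adjusted p = 0.00656). Of 27 further glycolysis and glucose genes 3 were lower and 1 higher (median 0.03). Pgm2, a phosphoglucomutase, differed by −0.66, Bsg, the chaperone of the lactate transporters, by −0.57, Gbe1, the glycogen branching enzyme, by −0.28 and Pygb, a glycogen phosphorylase, by 0.14. Of 32 other known hypoxia-induced genes 11 were lower and 0 higher (median −0.12), among them the repressor Bhlhe40 (−1.14), the endoplasmic reticulum oxidase Ero1l (−0.80), the mitochondrial protein Fam162a (−0.69), the cytokine Mif (−0.58) and the demethylase Kdm4b (−0.35). Of 23 genes of pyruvate dehydrogenase and the citric acid cycle 0 were lower and 1 higher, Pdhx (0.13). Of the genes named here, Cited2, Gbe1, Pygb, Kdm4b and Pdhx lost the call when a library was left out.

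Ratios between related genes, taken within a library, show how unevenly the pathway differed. Hk2 over Hk1 was 0.869 and 0.873 in Neo, 0.688 and 0.689 in water, 0.562 and 0.611 after 3 h of EGF and 0.611 and 0.598 after 18 h. Pfkl over Pfkp was 0.182 and 0.201 in Neo and from 0.0912 to 0.110 in the EGFR libraries. Eno2 over Eno1 was 0.111 and 0.101 in Neo and from 0.148 to 0.164 in the EGFR libraries. The inducible hexokinase and the liver phosphofructokinase were thus lower relative to their partners in all 6 EGFR libraries, and the neuronal enolase higher. Ldha over Pdha1, a subunit of pyruvate dehydrogenase, was 18.3 and 19.2 in Neo and from 10.3 to 11.04 in the EGFR line. Slc16a3 over Slc16a1, the widespread lactate transporter, was 2.77 and 2.57 in Neo, 0.987 and 1.05 in water and from 0.615 to 0.757 after EGF. In none of these 5 ratios did an EGFR library overlap a Neo library. No test was made on the ratios.

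**Figure D3:**
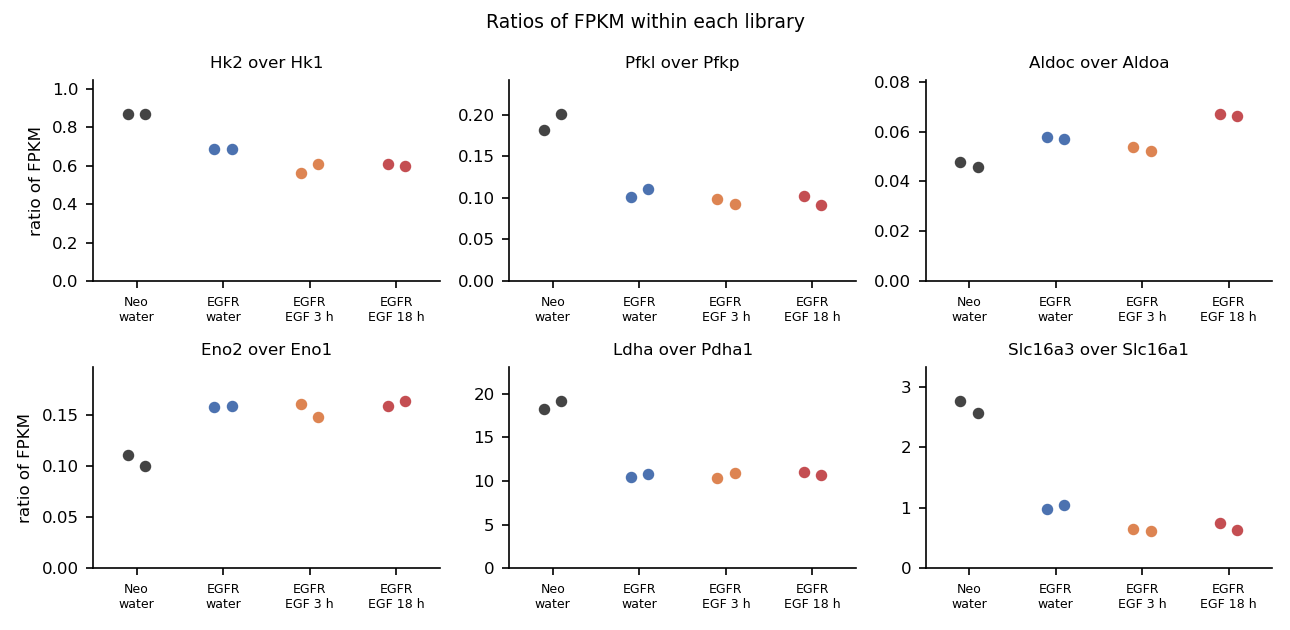
Ratio of FPKM of 6 gene pairs in each of the 8 libraries (points, n = 2 per group, axes from 0). Slc16a3 over Slc16a1 is above 2.5 in both Neo libraries and at most 1.05 in the EGFR line, and Aldoc over Aldoa is highest in the 2 libraries after 18 h of EGF.

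After 3 h of EGF in the EGFR line a few members were called lower than in water and 2 higher. Among the enzymes 3 were lower than in water and 0 higher by limma, with a median of −0.06 against −0.04 over all genes, and among the other hypoxia-induced genes 7 were lower and 2 higher (median −0.08). Over all genes 19.7% were lower and 11.8% higher. The shares of enzymes lower, 3 of 15, and of other members higher, 2 of 17, were near those of all genes. At an unadjusted p below 0.05 the enzymes gave 3 lower and 0 higher, against 3063 lower and 1787 higher of all 10874 genes tested. Of all calls 37.5% were higher, against 53.1% after median-ratio and 75.4% after common-sum scaling, and the median of the enzymes was 0.02 under the latter.

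The lower members at 3 h were led by Mxi1, Ankrd37, Bnip3l and Hk2, whose library values are given above and do not overlap those in water. Mxi1 stood at 67.1% of its level in water, a fold change of −0.52 (SE 0.0456, limma adjusted p = 4.49e-04). Ankrd37 changed by −0.49 (adjusted p = 0.0173), Bnip3l by −0.39 (adjusted p = 0.0186) and Hk2 by −0.32 (adjusted p = 0.00444). Ddit4, Vegfa, Kdm3a, Gys1, Tpi1 and Hk1 fell by 0.10 to 0.21 on the log2 scale. The lactate exporter Slc16a3 (−0.07), Bnip3 (−0.08) and Ldha (0.03), all lower than in Neo, did not pass the test. Higher were Ndrg1, at 136% of water (0.41, SE 0.0888, adjusted p = 0.0143), and Slc2a1, at 121% (0.27, SE 0.0620, adjusted p = 0.0171).

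Of these 12 calls, those of Mxi1 and Hk2 held under every setting tried, and that of Ddit4 was lost under common-sum scaling alone (adjusted p = 0.218). Without EGFR water replicate 1, EGFR water replicate 2 or EGF 3 h replicate 1, 1 enzyme and 2 other members were lower, and without EGF 3 h replicate 2 no member was higher (Ndrg1 adjusted p = 0.0554, Slc2a1 adjusted p = 0.0657).

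Ndrg1 and Slc2a1, higher at 3 h, were higher than in water at 18 h too, with 5 further members. Against water, 4 enzymes were higher and 2 lower (median 0.08, all genes −0.03), and 3 other hypoxia-induced genes were higher and 3 lower (median 0.02). Over all genes 13.2% were higher and 18.7% lower, so the share of the other members lower, 3 of 17, was near that of all genes. Of all calls 41.4% were higher, 53.6% after median-ratio and 62.8% after common-sum scaling. Both EGF comparisons share the water libraries, so their values are set side by side in the plot of EGF times without a measure of likeness.

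**Figure D4:**
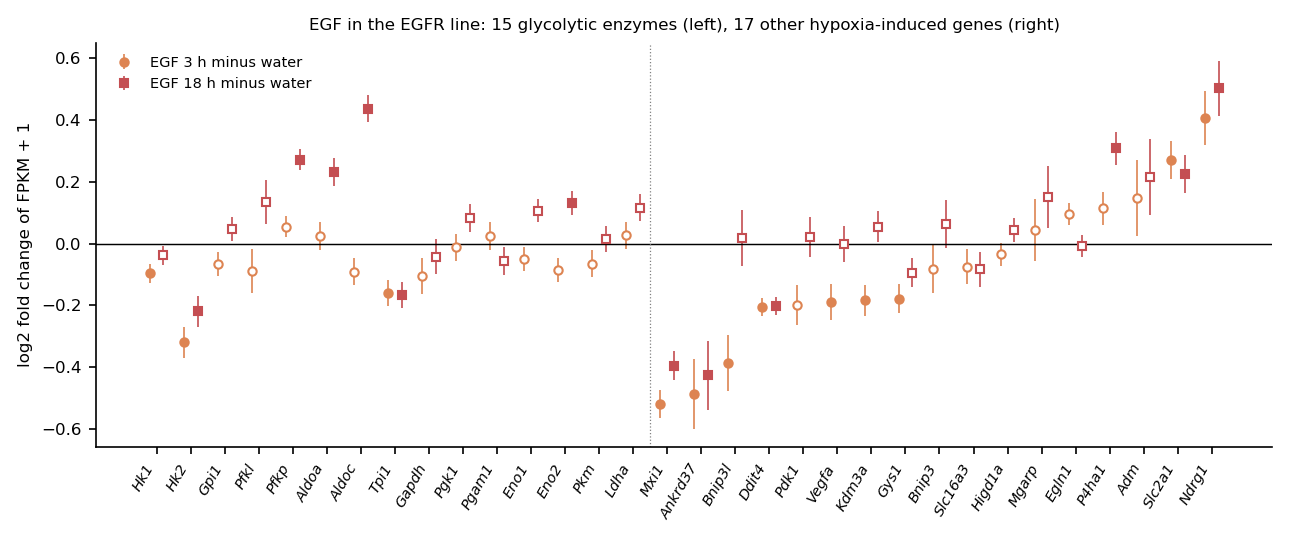
Log2 fold change of FPKM + 1 against water in the EGFR line after 3 h (circles) and 18 h (squares) of EGF for the 32 members, with bars of 1 standard error from limma and filled symbols for an adjusted p below 0.05. Ndrg1 and Slc2a1 are above 0 at both times and Mxi1, Ankrd37, Hk2, Ddit4 and Tpi1 below. Aldoc, Pfkp, Aldoa, Eno2 and P4ha1 are above 0 at 18 h and are filled at that time only.

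Aldoc rose to 137% of its level in water (0.44, SE 0.0445, limma adjusted p = 4.60e-04), from 35.8 ± 0.259 to 48.9 ± 2.84 FPKM. Pfkp, the platelet phosphofructokinase, rose from 202 ± 3.65 to 244 ± 0.437 FPKM (0.27, adjusted p = 0.00126), Aldoa by 0.23 (adjusted p = 0.00839) and Eno2 by 0.13 (adjusted p = 0.0411). The 4 enzymes higher at 18 h sat at the aldolase, phosphofructokinase and enolase steps. Their partners Pfkl (adjusted p = 0.187) and Eno1 (adjusted p = 0.0681) at the last 2 of these steps were not called. Hk2 (−0.22, adjusted p = 0.0155) and Tpi1 (−0.17, adjusted p = 0.0218) were lower than in water. Among the other members Ndrg1 (0.50, adjusted p = 0.00541), P4ha1 (0.31, adjusted p = 0.00471) and Slc2a1 (0.23, adjusted p = 0.0297) were higher. Ankrd37 (−0.43), Mxi1 (−0.39) and Ddit4 (−0.20) were lower.

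The calls of Aldoc, Pfkp, Ndrg1, P4ha1 and Mxi1 at 18 h held under every setting tried. Without any 1 of the 4 water and 18 h libraries Hk2, Tpi1 and Eno2 lost the call, Aldoa lost it without EGFR water replicate 1 or EGF 18 h replicate 1, Slc2a1 without EGFR water replicate 1 or either 18 h library, and Ankrd37 without either water library or EGF 18 h replicate 2 (adjusted p from 0.0547 to 0.157). Ddit4 lost it under common-sum scaling alone (adjusted p = 0.111).

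Compared directly, 18 h against 3 h of EGF, 6 enzymes and 5 other members were higher and 0 were lower, with medians of 0.10 for both lists against 0.01 over all genes. Over all genes 17.7% were higher and 16.0% lower. At an unadjusted p below 0.05 the enzymes gave 7 higher and 0 lower, and the others 6 higher and 1 lower. Of all 10874 genes tested 2554 were higher and 2348 lower at that threshold. Aldoc had the largest difference (0.53, SE 0.0445, limma adjusted p = 4.58e-04), and its ratio to Aldoa was 0.0537 and 0.0523 at 3 h and 0.0673 and 0.0662 at 18 h. Pfkp, Pfkl, Eno2, Aldoa and Eno1 were higher by 0.16 to 0.22. Bnip3l rose by 0.41 (adjusted p = 0.0141), back to 101% of its level in water, and Kdm3a by 0.24, Pdk1 by 0.22, P4ha1 by 0.19 and Vegfa by 0.19. Hk2, lower than water at both times, did not pass the test between them (0.10, adjusted p = 0.160).

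The calls of Aldoc and Eno2 between the times held under every setting tried, and Pfkp lost its call under common-sum scaling alone (adjusted p = 0.0748). The other 8 lost the call both without EGF 3 h replicate 1 and without EGF 18 h replicate 1 (adjusted p from 0.0531 to 0.224), and of all calls 52.5% were higher, 39.4% after common-sum scaling.

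After EGF most members were lower than in the Neo line in water. After 3 h all 15 enzymes and 16 of 17 other members were lower than in Neo water by limma, and 0 were higher (medians −0.70 and −0.79, all genes −0.02), while 19.1% of all genes were lower and 14.2% higher. After 18 h 12 enzymes and 16 others were lower and 0 higher (medians −0.61 and −0.55, all genes −0.02), with 16.4% of all genes lower and 13.9% higher. At an unadjusted p below 0.05 no member was higher in either comparison, against 2058 of all 10874 genes tested at 3 h and 2021 at 18 h. These comparisons differ in both line and EGF, and share the Neo libraries with each other and with the comparison in water. The comparison after 18 h differs in time too, since the Neo libraries are labelled 3 h. Common-sum scaling moved the median of all genes at 3 h to 0.13, with medians of −0.53 and −0.63 for the enzymes and the others, and the higher share of calls from 42.6% to 89.1% at 3 h and from 45.8% to 85.5% at 18 h.

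The 3 enzymes that were not called lower than Neo after 18 h were Aldoc, Pfkp and Eno2. Aldoc was at 101% of Neo (0.02, 95% interval −0.08 to 0.12, adjusted p = 0.760), Pfkp at 98.2% (−0.03, −0.11 to 0.06) and Eno2 at 96.9% (−0.04, −0.14 to 0.05). In the same libraries Mgarp stood at 20.8%, Bnip3 at 34.3%, Ankrd37 at 35.4%, Slc16a3 at 37.5%, Pdk1 at 45.5%, Pfkl at 49.5% and Ndrg1 at 50.7% of Neo. The median over the enzymes was 68.9% of Neo in water, 61.7% after 3 h and 65.2% after 18 h, and over the others 65.8%, 56.2% and 67.1%. Adm was the member not called at either time. Without Neo replicate 1 or EGF 3 h replicate 1 Slc2a1 lost its call at 3 h (adjusted p = 0.0535 and 0.0545), and without Neo replicate 1 or either 18 h library Vegfa lost its call at 18 h (adjusted p from 0.0502 to 0.0993).

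**Figure D5:**
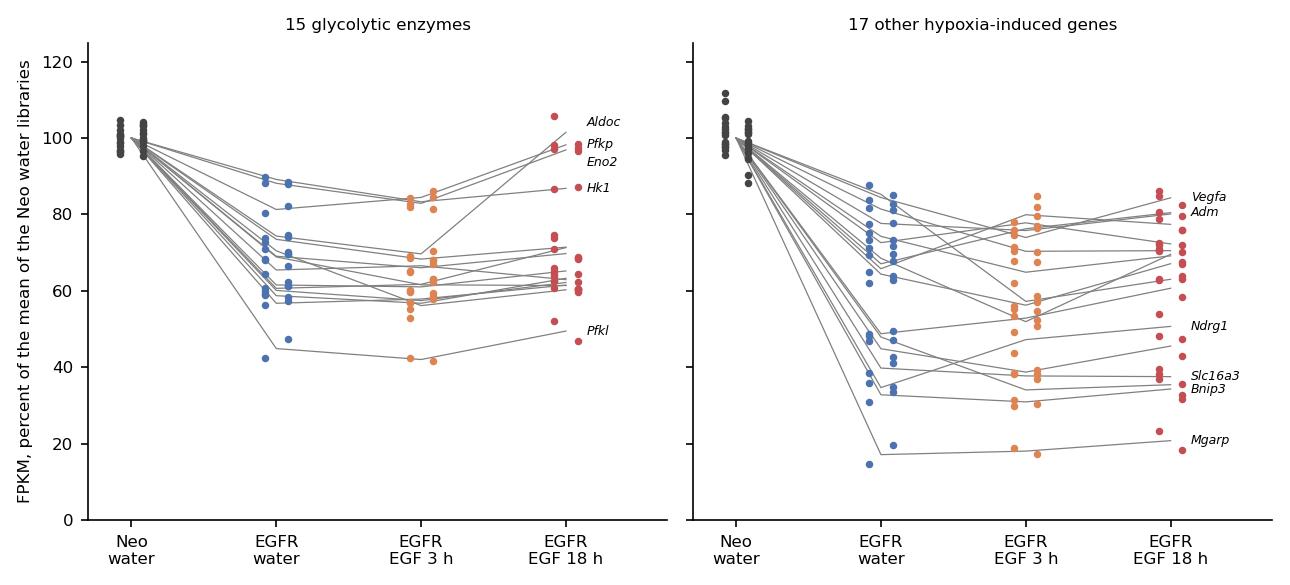
FPKM of each member as a percent of its mean in the Neo water libraries, for the 8 libraries (points, n = 2 per group) with lines through the group means. Aldoc, Pfkp and Eno2 reach 96.9 to 101% of Neo after 18 h of EGF, and Mgarp and Bnip3 stay at 20.8% and 34.3%.

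Genes around the pathway were called in both directions after EGF. At 3 h, when 19.7% of all genes were lower and 11.8% higher, the shares of the glycolysis and cycle lists called lower were near that of all genes. In the HIF machinery 1 of 18 genes was lower and 0 higher (unadjusted 1 lower and 2 higher), Rbx1, the RING subunit of the VHL ligase (−0.15). Of 27 further glycolysis genes 2 were higher, Slc16a1 (0.60) and the mitochondrial phosphatase Pgam5 (0.18), and 6 lower, among them the glucose transporter Slc2a8 (−0.55), the pyruvate dehydrogenase phosphatase Pdp1 (−0.55), the muscle phosphofructokinase Pfkm (−0.20) and the bifunctional regulator Pfkfb4 (−0.20). Of 32 other hypoxia-induced genes 8 were higher and 8 lower. Bhlhe40 rose from 2.53 ± 0.545 to 10.1 ± 0.716 FPKM (1.66) and the lipid droplet protein Hilpda by 0.52, and Ccng2 (−0.78), Narf (−0.74) and the ectonucleotidase Nt5e (−0.49) fell. Of 23 pyruvate dehydrogenase and cycle genes 6 were lower, among them Suclg2 (−0.25), Suclg1 (−0.22), Sdhb (−0.18) and Sdhd (−0.16), and Me2, a malic enzyme, was higher (0.18). Of the genes named for 3 h, Rbx1, Pfkfb4, Pgam5, Suclg2, Suclg1, Sdhb, Sdhd and Me2 lost the call when a library was left out, and the others kept it.

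At 18 h against water, when 13.2% of all genes were higher and 18.7% lower, 1 HIF machinery gene was higher, the coactivator Crebbp (0.23), and 2 were lower, Cited2 (−0.21) and Rbx1 (−0.18). Further glycolysis genes gave 4 higher and 5 lower, with Slc2a6 (0.60), Slc16a1 (0.46), Pfkfb4 (0.32) and the glycerol phosphate dehydrogenase Gpd1 (0.21) higher and Pdp1 (−0.32) and Tigar (−0.27), a fructose 2,6-bisphosphatase, lower. Other hypoxia-induced genes gave 6 of 32 lower, near the share of all genes, and 10 of 32 higher, led by Bhlhe40 (1.18), Vldlr (0.34), Ero1l (0.31), Hilpda (0.30) and P4hb (0.27), with Ccng2 lower (−0.38). Ero1l and P4hb work together in disulfide formation, and P4hb is also the partner subunit of P4ha1. Cycle genes gave 1 higher, Me2 (0.18), and 9 lower, led by Suclg2 (−0.32), Idh3a (−0.26), Sdhd (−0.21), Pcx (−0.20) and Dld (−0.19). Of these 21 genes 12 kept the call with every library left out, and Crebbp, Cited2, Rbx1, Gpd1, Hilpda, Suclg2, Pcx, Dld and Me2 did not.

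Between 18 h and 3 h of EGF, when 17.7% of all genes were higher and 16.0% lower, 4 of 18 HIF machinery genes were lower and 0 higher (unadjusted 4 lower and 1 higher): Cited2 (−0.34), Zfp91 (−0.19), Hif1a, the oxygen-regulated alpha subunit itself (41.1 ± 1.25 against 46.1 ± 1.52 FPKM, −0.16), and the scaffold Cul2 (−0.13). Further glycolysis genes gave 5 of 27 lower, near the share of all genes, and 9 of 27 higher, with Slc2a6 (0.64), Pfkfb4 (0.52), Slc2a8 (0.32), Pdp1 (0.23) and Gpd1 (0.21) higher and Pgam5 (−0.24) lower. Other hypoxia-induced genes gave 10 higher, among them Narf (0.58), Ccng2 (0.40) and Kdm4b (0.28), and 9 lower, among them Bhlhe40 (−0.48) and Hmox1 (−0.36), the heme oxygenase. Cycle genes gave 2 lower, Dld (−0.25) and Idh3a (−0.23). Of the genes named here, Cited2, Slc2a6, Pfkfb4, Pgam5, Narf, Ccng2 and Idh3a kept the call under every setting tried, and the call of Hif1a was lost without EGF 3 h replicate 1 or either 18 h library (adjusted p from 0.0506 to 0.133).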

How the data were processed

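The authors deposited FPKM per gene locus for 8 AtT-20 RNA-seq libraries, and these FPKM values were analysed as deposited. Per the submitters' processing notes the build was mm10 and the tools were DESeq (no version), HTSeq 0.5.4, TopHat2 2.0.8 and Trimmomatic 0.22, with no role or order given. Not given in the sources used here are the program behind the FPKM, the choice of the 12193 loci, read depth and strandedness. Without strand, reads of overlapping genes cannot be told apart. FPKM is divided by length and library total, so abundant short RNAs in 1 library can lower its other values. Neo replicate 1 had the largest small RNA share (39.0%) and also the highest median FPKM, 14.65, against 14.30 to 14.54 in the other libraries. An effect of small RNAs on the other values was not tested. Low FPKM values did not fall on whole reads (27.4 to 35.1% within 0.1 read at the best of the depths tried, 10 to 120 M), so no count test was run, and depth limits the precision of low values to an unknown degree.

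The test was limma with a variance trend on log2(FPKM + 1) for the 10874 genes that reached FPKM 1 in 2 or more libraries, all 4 groups in 1 fit (4 residual and 3.29 prior degrees of freedom), two-sided, Benjamini-Hochberg adjustment over all genes of a comparison, threshold 0.05. The pseudocount of 1 understates changes of low genes. The 35 members, the pathway lists and the tests were chosen with earlier results of these data known, so none is independent evidence of direction. All members are named, with values per library where a call in 1 of the first 4 comparisons reached an absolute log2 change of 0.3. Up to 6 called genes with the largest change are named from each pathway list and comparison, and some of these are not reported here. The fit was tested on simulated data with independent normal noise. Those data held no difference in scaling or small RNA share, so that check does not bear on these limits of the calls.

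Gene coordinates are those of the deposited loci on mm10, 1-based. Start and end matched GENCODE M21 for 24 of the 32 members. Copies were matches of at least 95% identity over at least 200 bases between M21 transcripts. Promoter windows came from RefSeq (GRCm38.p6). Settings tried were each library left out, scaling by quantiles, median ratios or a common sum, a pseudocount of 0.1, an FPKM filter of 5 or none, the replicate number as a block, the 2 groups alone, protein-coding genes only and a constant prior variance. A crossed block was added after seeing the data and is not counted where the text speaks of every setting tried. Tools were R 4.3.3, limma 3.58.1, Python 3.11.15, pandas 2.3.3, NumPy 2.4.6, matplotlib 3.10.9 and minimap2 2.31.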

Additional observations from a re-analysis of the deposited data

Results flagged for a closer look

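The response of 11 members to EGF differed between the 2 times by the direct test in limma of 18 h against 3 h, all with higher levels at 18 h. Among the enzymes the log2 fold changes of 18 h against 3 h were 0.53 for Aldoc, 0.22 for Pfkl, 0.22 for Pfkp, 0.22 for Eno2, 0.21 for Aldoa and 0.16 for Eno1. Among the other members they were 0.41 for Bnip3l, 0.24 for Kdm3a, 0.22 for Pdk1, 0.19 for P4ha1 and 0.19 for Vegfa. Over all genes 17.7% were higher at 18 h than at 3 h. The calls of 8 of the 11, all but Aldoc, Pfkp and Eno2, were lost when a library was left out. The absence of a water library labelled 18 h applies to all of them.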

How the results depend on the processing

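No call of a member or named pathway gene changed direction under any alternative. Between the lines, 11 to 15 enzymes and 12 to 17 other members were lower and 0 higher under every setting tried. Over all genes there, 338 were higher and 315 lower. The higher count was 530 with protein-coding genes only and 108 with the 2 groups alone, and 23 to 372 with a library left out. The lower count was 103 under common-sum scaling, 129 with the 2 groups alone and 63 to 304 with a library left out. At 3 h of EGF, 0 enzymes were higher, but 1 under median-ratio and 2 under quantile scaling. Of the 3 lower, 1 was called under common-sum scaling, 1 with the 2 groups alone and 1 to 3 with a library left out. Of the other members at 3 h, 7 lower became 3 under common-sum scaling and 2 to 7 with a library left out, and 2 higher became 0 to 2. Over all genes, 1283 higher became 610 to 1301 with a library left out, and 2142 lower became 440 under common-sum scaling and 804 to 2296. At 18 h, 4 higher enzymes became 7 under quantile scaling and 2 to 5 with a library left out, and 2 lower became 0 under common-sum scaling, 1 under quantile scaling and 0 to 2. Over all genes, 1437 higher became 849 to 1438, and 2030 lower became 705 under common-sum scaling and 925 to 2163. Between 18 h and 3 h, 6 higher enzymes became 2 under common-sum scaling and 3 to 6 with a library left out. Of the other members, 5 higher became 3 without a filter, 2 under common-sum scaling and 0 to 5 with a library left out, and 0 lower became 1 under median-ratio and 1 under quantile scaling and 0 to 1. Over all genes, 1922 higher became 863 under common-sum scaling and 1050 to 1890, and 1741 lower became 813 to 1750. Where no cause is given it was not tested. In leave-one-out fits the lone library of a group is assumed to vary like the others.

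With the replicate number as a block, 183 genes were higher and 199 lower between the lines, against 338 and 315, with 12 to 15 enzymes lower over all settings other than left-out libraries. The labels do not say that equal numbers mark a shared culture or day, and replicate differences correlated at −0.17 between the 2 water groups, −0.11 between the EGF times, 0.000595 and −0.0593 between water and EGF at 3 h and 18 h, and 0.0335 and 0.310 between Neo and EGF at 3 h and 18 h. With the numbers crossed in a fit of 2 groups, added for the correlations below −0.1, 27 genes were higher and 64 lower between the lines (12 enzymes and 10 other members lower), and 1313 were higher and 1090 lower between the times.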
